A study of Mus musculus with 2 samples.

Results

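The genes described here are 42 DNA repair and damage checkpoint genes of the mouse, chosen from a list of names that covers the checkpoint kinases, break signalling, and the main routes of break, excision and mismatch repair. Fam111a, a replication-coupled protease gene, is on that list as well, and its difference between these arrays was already known when the list was made. Of the 42 genes, 41 had a transcript cluster, the array's unit for a gene, that carried their symbol alone. Rnf8, a ubiquitin ligase that acts at breaks, shares its cluster with another symbol and has no value here. The array gave such clusters for 19938 genes in all.

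Gene expression was measured on 1 array for each of 2 genotypes, in spleen CD4+ T cells that were sorted on abundant CD4 and T cell receptor beta and were mostly naive, as judged by little surface CD44. The knockout sample, Taf7 -/-, carried a floxed and a null Taf7 allele together with the Cre transgene named 8EIII-cre. The heterozygous sample, Taf7 +/-, carried the same pair of alleles without Cre, and both came from a mixed C57/BL6 and 129 background. Neither the age of the mice nor whether animals were pooled is stated, and neither are the cells in which the Cre transgene is active. The values are the authors' log2 signals, and differences are knockout minus heterozygote on that scale; where a pair of signals is given, the heterozygote comes first. With 1 array per genotype no difference has an error or a test, so a gene is described by its size, against fixed steps of 1.5-fold and 2-fold. In RNA from a population, fewer cells of a type and less RNA per cell cannot be told apart.

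Cells mend broken, mismatched or chemically altered DNA by separate routes that share sensors and signalling kinases. Double-strand breaks are bound by the Mre11, Rad50 and Nbn complex, which activates the kinase Atm, and are then joined end to end or copied from a sister chromatid by homologous recombination. Resting T cells are outside the cell cycle and depend on end joining more than on recombination, and developing T cells use the same end-joining proteins to assemble their antigen receptor genes. Taf7 is a subunit of TFIID, the general transcription factor that binds core promoters, and the sequence ahead of some of the members is therefore shown first.

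The upstream bases of 4 members are shown as examples of both directions: Fam111a, Blm and Xrcc4 were lower in the knockout, and Atm was higher. Nbn and Prkdc, which also stand out below, were not matched in the RefSeq table used. Each is the 250 bases that precede an annotated start in RefSeq, build GRCm38.p6, on the strand of the gene. Fam111a has 2 such windows, and the 1 shown is the farther upstream. The Fam111a stretch is chr19:12573260-12573509 on the plus strand, and on the minus strand Blm is chr7:80534999-80535248, Xrcc4 is chr13:90089609-90089858 and Atm is chr9:53536672-53536921. Capitals mark matches on either strand to any of 4 motifs. The TATA box was searched as TATAAA. The E2F-type site, bound by factors of the cell cycle, was searched as GCGGGAA. The GC box, bound by Sp1, was searched as GGGCGG. The CCAAT box was searched by the letters of its name. Motifs may overlap.
Fam111a: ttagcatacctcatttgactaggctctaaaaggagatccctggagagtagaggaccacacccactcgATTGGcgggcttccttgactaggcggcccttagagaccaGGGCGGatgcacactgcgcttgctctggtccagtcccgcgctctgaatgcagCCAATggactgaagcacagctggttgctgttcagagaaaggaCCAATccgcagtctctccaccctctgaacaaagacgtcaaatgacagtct
Blm: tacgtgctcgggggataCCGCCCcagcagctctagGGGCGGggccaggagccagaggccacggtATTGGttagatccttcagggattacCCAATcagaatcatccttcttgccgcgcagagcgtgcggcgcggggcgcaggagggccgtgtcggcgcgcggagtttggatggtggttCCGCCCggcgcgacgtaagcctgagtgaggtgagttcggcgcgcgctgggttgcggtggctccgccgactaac
Xrcc4: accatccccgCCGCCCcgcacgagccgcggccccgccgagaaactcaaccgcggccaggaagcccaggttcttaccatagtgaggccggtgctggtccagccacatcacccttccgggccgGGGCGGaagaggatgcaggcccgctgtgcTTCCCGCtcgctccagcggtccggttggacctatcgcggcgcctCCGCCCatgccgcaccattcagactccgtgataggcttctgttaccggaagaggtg
Atm: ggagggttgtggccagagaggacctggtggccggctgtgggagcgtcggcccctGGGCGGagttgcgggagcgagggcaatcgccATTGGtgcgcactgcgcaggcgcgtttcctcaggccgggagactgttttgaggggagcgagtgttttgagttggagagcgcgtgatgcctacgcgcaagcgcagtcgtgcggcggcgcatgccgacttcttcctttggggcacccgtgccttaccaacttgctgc

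Fam111a had 3 CCAAT matches and 1 GC box match in this stretch, Blm had 2 and 3, and none of the 4 sequences held TATAAA. Xrcc4 had the only E2F-type match among them, 100 bases before the start. RefSeq windows were matched for 35 of the 42 members, as 40 windows, since some genes have several starts; the E2F-type match stood in 20% of those 40 and in 3.82% of the 32851 windows of all genes. CCAAT matches were in 52.5% of the member windows against 33.8% of all, GC box matches in 62.5% against 32.7%, and TATAAA in 2.5% against 12.4%. These shares describe letters in a window and not bound sites. The windows of all genes were not limited to genes measured here or above the filter, while most members were above it. Above the filter defined below, 30 of all 37 members, matched or not, and 59.1% of all genes were lower in the knockout. Of the matched members there, 4 of 6 with an E2F-type match were lower, with a median log2 difference of -0.05. Without that match 21 of 25 were lower, with a median of -0.19. For the GC box 20 of 23 members with it were lower (median -0.19), and 5 of 8 without it (median -0.00). For the CCAAT box 11 of 16 with it were lower (median -0.15), and 14 of 15 without it (median -0.19). The motifs were chosen after the values were seen, and no difference between members with and without a motif was tested.

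Most of the repair genes were slightly lower in the knockout sample, and few differed by much. Counts were made over genes whose mean over both arrays reached 7.71, the 50th percentile of all rows, a filter that 37 members and 10457 genes in all passed. Of the 37 members, 30 were lower and 7 higher, with a median log2 difference of -0.17. Over all 10457 genes 59.1% were lower and the median was -0.05, a direction that the members share. Array and genotype cannot be told apart here, and the source of that general shift was not tested. When a smooth trend of the difference with mean signal was subtracted, 27 of 37 members and 50.8% of all genes were lower, with a member median of -0.08. With 1 array per genotype this lean was not tested.

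**Figure D1:**
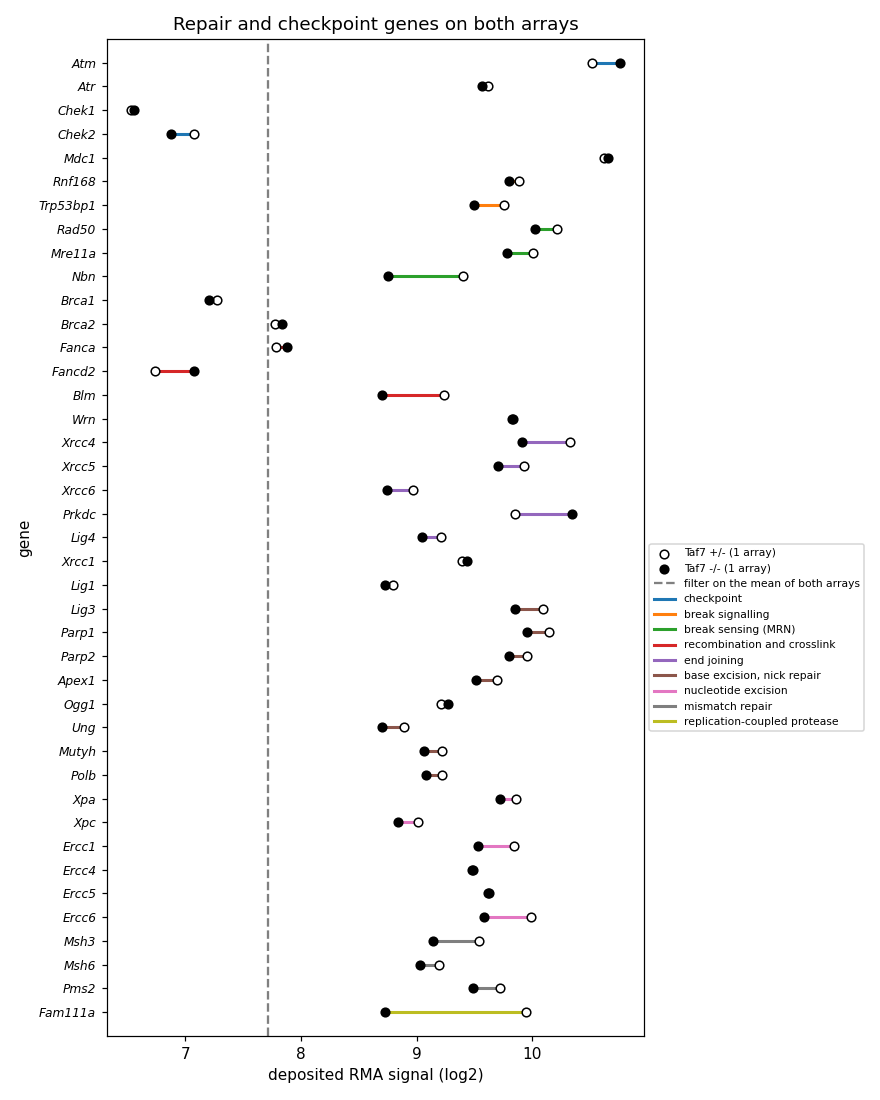
Deposited log2 RMA signal of each of the 41 measured members, with 1 array per genotype; open circles are Taf7 +/-, filled circles Taf7 -/-, bars join the pair and are coloured by role, and the dashed line is the filter value of 7.71. Filled circles lie to the left for most genes, farthest for Fam111a, and to the right for Prkdc, Atm and Fancd2.

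At the fixed step of 1.5-fold, 2 members were lower, Fam111a and Nbn, and none was higher. That is 5.41% of the members, against 3.17% of all genes lower and 0.449% higher at that step. The count was 1, Fam111a alone, with the trend subtracted, after quantile normalization or with clusters averaged. Over all genes the split was 332 lower and 47 higher as deposited, and 246 lower and 71 higher once the median difference was subtracted. Only Fam111a passed 2-fold, a step at which 0.325% of all genes were lower and 0.0383% higher. Without Fam111a, whose value was known when the list was drawn up, 1 of 36 members passed 1.5-fold and the median was -0.17. Of the 37 members, 34 lay inside the central 95% range of all genes, from -0.62 to 0.39; the exceptions were Fam111a, Nbn and Prkdc.

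Fam111a encodes a protease that binds the sliding clamp PCNA and helps replication forks pass protein obstacles. Its signal was 9.95 in the heterozygous sample and 8.73 in the knockout, which is 2.33-fold lower (log2 difference -1.22). This placed it 16th from the lowest among the 10457 genes. Because its difference was known when it was listed, its place is a description. The difference was between -1.17 and -1.12 under the 3 other scalings of the arrays. Both signals were above the filter value of 7.71, although the gene does not pass a filter at the 75th percentile.

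Genes around Fam111a on its chromosome differed less. Of the 5 annotated genes on each side, 6 had a cluster of their own, and their differences ran from -0.03 to 0.38. Dtx4, a ubiquitin ligase gene and the single neighbour above the filter, was at 8.40 and 8.37. Mpeg1, a macrophage pore-forming protein gene, was below the filter at 5.97 and 6.32.

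Markers of regulatory T cells, the CD4 lineage that restrains immune responses, were lower in the knockout sample too. The marker list was drawn up with earlier results of these data known. All 10 regulatory T cell markers on it were lower, against 59.1% of all genes above the filter. By at least 1.5-fold 6 of them were lower, against 3.17% of those genes. The mean log2 signal of the 10 markers was 10.32 and 9.53. Foxp3, the factor that defines these cells, was at 11.25 and 10.19, Ctla4, an inhibitory receptor, at 9.65 and 8.16, and Il2ra, a cytokine receptor chain, at 11.70 and 10.87. Ikzf2, which encodes Helios, was at 9.54 and 8.57, Nrp1, a surface coreceptor, at 8.75 and 7.08, and Izumo1r, a folate receptor family gene, at 11.90 and 10.84. Smaller differences were seen for Tnfrsf18 at -0.26, Gpr83 at -0.02, Ikzf4 at -0.20 and Capg at -0.35. With the trend between the arrays subtracted 9 of the 10 were lower. Markers of memory T cells were lower as well where they passed the filter, all 3 of them with a median of -0.44. Cd44, the adhesion receptor by whose low surface level the cells were judged naive, was at 9.56 and 8.21, Cxcr3, a chemokine receptor, at 8.43 and 7.99, and Itgb1, an integrin, at 9.80 and 9.46. S100a4 and S100a6, below the filter, had differences of 0.02 and 0.09. The part of regulatory or memory cells in the lower Fam111a signal, or in that of any other member, was not tested.

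**Figure D2:**
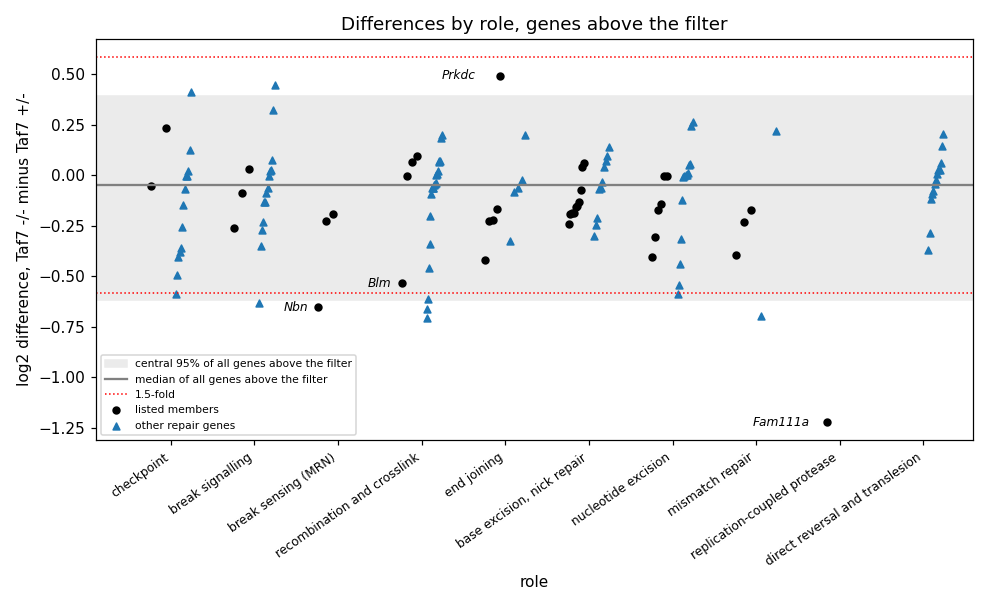
Log2 difference, knockout minus heterozygote, of members (black circles) and other repair genes (blue triangles) above the filter, by role, on a linear axis; the grey band is the central 95% of all 10457 genes, the grey line their median and the dotted lines 1.5-fold. Fam111a and Nbn lie below the lower dotted line, Prkdc is the highest member at 0.49, and the other members lie inside the band.

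Among the checkpoint kinases, Atm, which responds to double-strand breaks, had the largest difference in the values as deposited. Its signal was 10.52 and 10.76, a difference of 0.24. Atr, which responds to stalled forks and single-stranded DNA, was at 9.62 and 9.57. Their effector kinases were both below the filter: Chek1, which acts after Atr, was at 6.53 and 6.55, and Chek2, which acts after Atm, at 7.07 and 6.87. With the trend subtracted Chek2 had the largest difference, -0.36, against 0.31 for Atm. No checkpoint kinase differed by 1.5-fold.

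Of the proteins that gather at a break, Mdc1, the adaptor that reads the histone mark laid down by Atm, was at 10.62 and 10.65. Rnf168, a ubiquitin ligase that marks chromatin beside the break, was at 9.88 and 9.80. Trp53bp1, which favours end joining over resection, was lower by more, from 9.75 to 9.49. The median of these 3 was -0.09, close to the -0.05 of all genes above the filter.

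All 3 subunits of the break-sensing complex were lower in the knockout, against 59.1% of all genes above the filter, with a median of -0.23. Rad50, the ATPase that tethers ends, was at 10.22 and 10.02, and Mre11a, the nuclease, at 10.01 and 9.78. Their differences were -0.10 and -0.13 with the trend subtracted. Nbn, the subunit that recruits Atm, was at 9.41 and 8.75, which is 1.57-fold lower (log2 difference -0.65). Nbn was the only member with several clusters, and they disagreed: the other was at 8.07 and 8.14, a difference of 0.07. With both clusters averaged Nbn was at -0.29, so that its place past 1.5-fold rests on 1 of 2 clusters. It was at -0.573 with the trend subtracted and -0.581 after quantile normalization, both inside the 1.5-fold step, which is 0.585 on the log2 scale.

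End joining held both a low and the highest member. Xrcc5 and Xrcc6, which encode the Ku ring that holds broken ends, were at 9.93 and 9.70 and at 8.97 and 8.74, with nearly equal differences of -0.23 and -0.22. Xrcc4, the scaffold of the ligase, was at 10.33 and 9.91, a difference of -0.42. Lig4, the ligase itself, was at 9.21 and 9.05. Prkdc, the kinase that Ku recruits to ends, went the other way, at 9.85 and 10.34, 1.41-fold higher. It ranked 101st from the highest of 10457 genes and was at 0.584 with the trend subtracted, without passing 1.5-fold under any setting.

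Homologous recombination and crosslink repair held 6 members, of which 4 were above the filter, and these split evenly by direction. Brca2, which loads the recombinase, was at 7.77 and 7.84 and Fanca, a subunit of the Fanconi core complex, at 7.78 and 7.88, the members nearest to the filter value. Brca1, which promotes resection, was below it at 7.27 and 7.21. Fancd2, which is ubiquitinated at crosslinks, was below it too at 6.73 and 7.07, and its difference of 0.34 was 0.17 with the trend subtracted. Genes below the filter had a median difference of 0.14.

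The helicases Blm and Wrn, both of the RecQ family, differed from each other. Blm, which dissolves recombination intermediates, was at 9.23 and 8.70, which is 1.45-fold lower (log2 difference -0.54). Blm and Nbn are the members on either side of the 1.5-fold step among lower ones. Wrn was at 9.83 on both arrays.

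Base excision and nick repair genes differed little. Of the 10 members 8 were lower and 2 higher, where 59.1% of all genes above the filter were lower. Their differences lay within a range of -0.24 to 0.06, with a median of -0.16. The glycosylases, which remove altered bases, were Ung at 8.89 and 8.70, Mutyh at 9.22 and 9.07, and Ogg1 at 9.21 and 9.27. Apex1, the nuclease that cuts the resulting site, was at 9.70 and 9.51, and Polb, the gap-filling polymerase, at 9.22 and 9.09.

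Genes whose proteins sense and seal nicks were mostly slightly lower too. Parp1 and Parp2, the polymerases that mark nicks with ADP-ribose, were at 10.15 and 9.96 and at 9.96 and 9.80. Lig3, the ligase of nick repair, had the lowest difference of the group, -0.24, at 10.10 and 9.85, while its scaffold Xrcc1 was at 9.40 and 9.44. Lig1, the ligase of replication, was at 8.80 and 8.73. No member of this group came near 1.5-fold.

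All 6 nucleotide excision genes were lower, against 59.1% of all genes above the filter, though for some the difference was close to nil. Ercc6, which couples repair to stalled RNA polymerase, was at 9.99 and 9.58, a difference of -0.40. Ercc1, a subunit of the 5' nuclease, was at 9.84 and 9.54, while its partner Ercc4 was at 9.48 on both arrays. Ercc5, the 3' nuclease, was at 9.63 and 9.62. Xpc, which recognises damage, was at 9.01 and 8.84, and Xpa, which verifies it, at 9.86 and 9.72. With the trend subtracted 4 of the 6 were lower.

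The 3 mismatch repair genes were lower as well, against 59.1% of all genes above the filter, with a median of -0.23. Msh3, which recognises larger loops, was at 9.54 and 9.14, and Msh6, which recognises base mismatches, at 9.20 and 9.03. Pms2, the nuclease subunit, was at 9.72 and 9.48. With the trend subtracted all 3 were still lower and their median was -0.13.

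**Figure D3:**
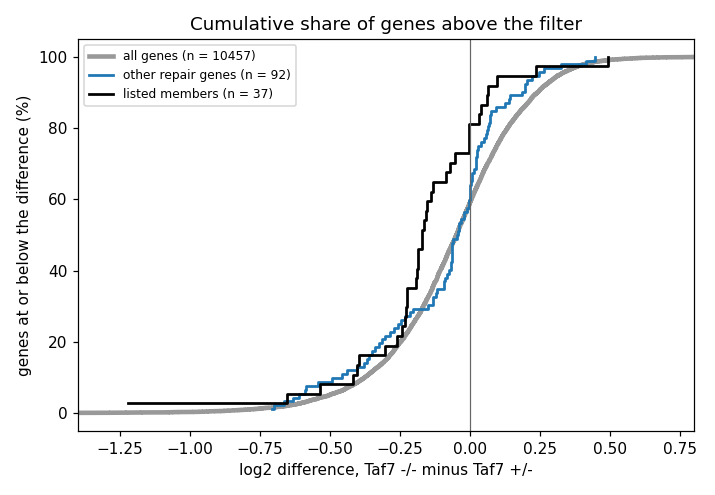
Cumulative percentage of genes at or below each log2 difference, for the 37 members, 92 other repair genes and all 10457 genes above the filter; the vertical line marks 0. The black line runs to the left of the grey line through the middle of the range, and 81.1% of members lie below 0, against 62% of other repair genes and 59.1% of all genes.

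A further list of 129 repair genes outside the 42 showed less of this lean. It had 117 genes with a cluster of their own and 92 above the filter, of which 57 were lower and 35 higher. Their median difference was -0.05, that of all genes. With the trend subtracted 41 of the 92 were lower. The lean of the 42 was thus not seen over the further list, and the difference between the lists was not tested.

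At 1.5-fold, 7 genes of that further list were lower and 0 higher, 7.61% against 3.17% of all genes, but only 3 remained past that step once the median difference was subtracted and 4 with the trend subtracted. Fanci, the partner of Fancd2, was at 8.66 and 7.95, and Fancl, the ligase that ubiquitinates the pair, at 8.74 and 8.08. Gen1, a resolvase of recombination junctions, was at 8.51 and 7.90. Mlh3, a MutL homologue of mismatch repair, was at 10.06 and 9.36, and Shld1, a shieldin subunit that protects ends from resection, at 9.69 and 9.06. Timeless, a fork protection factor, was at 9.14 and 8.55. Rpa3, the small subunit of the complex that coats single strands, was at 9.64 and 9.05, but its other cluster differed by -0.11. Tipin, the partner of Timeless, was not past the step, at 8.92 and 8.43 or 1.41-fold lower.

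The other genes at either end of their groups were within 1.5-fold. Mdm4, a p53 inhibitor, was at 11.07 and 11.49, L3mbtl1, a chromatin reader, at 8.10 and 8.54, and H2afx, the histone that Atm marks at breaks, at 9.63 and 9.96. In log2 differences, among end-joining genes Nhej1, a scaffold that works with Xrcc4, was at -0.33 and Polm, a gap-filling polymerase, at 0.20. In base excision Fen1, the flap nuclease, was at -0.30 and Apex2, a nuclease related to Apex1, at 0.14. In nucleotide excision Cetn2, a partner of Xpc, was at -0.54, Rpa1 at -0.44 and Ddb2, a damage sensor, at 0.26. Of the bypass and reversal genes Rad18, a ubiquitin ligase for PCNA, was at -0.37 and Alkbh2, a DNA demethylase, at 0.20. Pms1, the other mismatch gene above the filter, was at 0.22.

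The lymphocyte recombination genes were all below the filter. Rag1 was at 6.62 and 6.73 and Rag2 at 4.95 and 5.09, the genes of the nuclease that opens antigen receptor loci in the thymus. Dntt, the polymerase that adds bases at those joints, was at 7.76 and 6.84, with a mean below the filter value and a difference of -0.92.

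Of the 14 proliferation markers with a cluster, 9 were higher and 5 lower, or 64.3% higher, close to the 60.7% of all 19938 genes, and their mean log2 signal was 8.56 and 8.68. Below the filter, where 4 of the 14 lie, 82.5% of all genes were higher. Above it 6 of 10 markers were higher, against 40.9% of all genes. Mki67, a marker of cycling cells, was at 7.50 and 7.78, Ccna2 at 6.76 and 7.21, Birc5 at 7.09 and 7.41, and Cdk1 at 7.26 and 7.24, all below the filter. Top2a, above it, was at 7.70 and 7.96, Ccnb2 at 7.77 and 8.08, and Rrm2 at 7.76 and 7.96. Replication genes were nearly even: Pcna at 12.31 and 12.42, Mcm2 at 10.55 and 10.46, Mcm3 at 9.22 and 9.18, Mcm5 at 10.04 and 10.05, and Mcm6 at 9.77 and 9.63. Tyms was at 8.11 and 8.09 and E2f1 at 8.02 and 8.08.

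**Figure D4:**
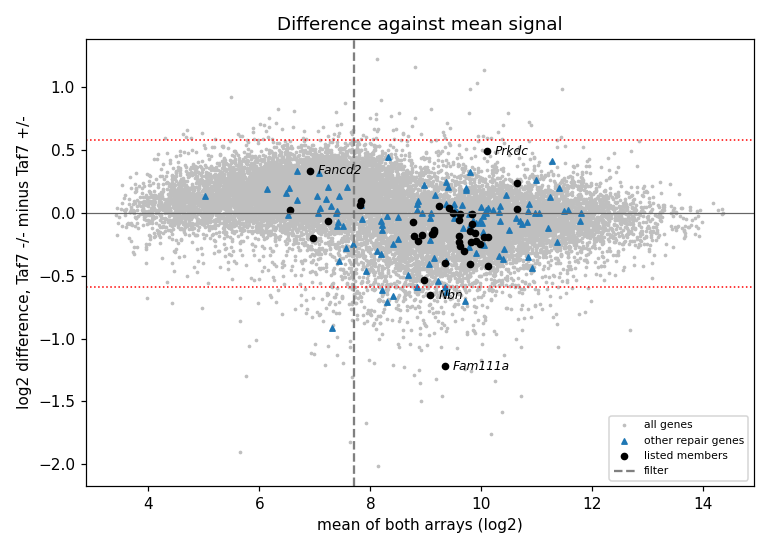
Log2 difference against the mean of both arrays for all 19938 genes (grey), other repair genes (blue) and members (black); the dashed line is the filter and the dotted lines 1.5-fold. Genes of low signal lie mostly above 0, and Fam111a stands apart from the other members at -1.22.

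For the series as a whole, signals ran from 3.18 to 14.56 in the heterozygote and from 3.09 to 14.56 in the knockout. Taf7 was at 8.34 and 7.79, 1.46-fold lower, and since the place of its probes in the gene is not stated, this is no check of the deletion. The 6 measured T cell markers were all above the filter on both arrays, between 11.06 and 13.50. Of these 4 were lower and 2 higher, with differences from -0.50 to 0.05, against 59.1% of all genes lower. Of 6 measured B cell markers 5 were below the filter, as were all 7 markers of myeloid cells and all 4 of natural killer cells. The B cell marker above it was Cd79b, at 8.24 and 8.23. Of 2 CD8 T cell markers, Cd8b1 was above the filter at 10.50 and 10.24, and Cd8a was below it at 7.63 and 7.65. Of 5 plasma cell markers 4 were below the filter, and Xbp1 was above it at 11.21 and 10.93.

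**Figure D5:**
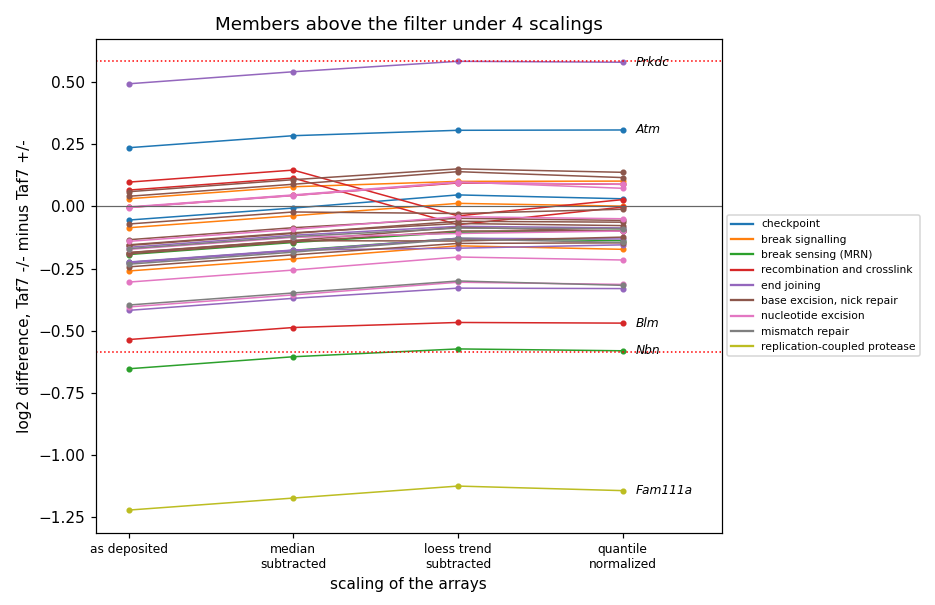
Log2 difference of the 37 members above the filter as deposited and under 3 other scalings, 1 line per gene coloured by role, with dotted lines at 1.5-fold. Fam111a stays near -1.22 to -1.12, Nbn crosses to just inside the lower dotted line, and members near 0 change sign.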

How the data were processed

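Gene-level log2 signals of 2 arrays were used as deposited; the authors made them with RMA on the core gene set in Affymetrix Expression Console version 1.1, per the labels and the submitters' processing notes. RMA subtracts background, equalises the arrays and summarises probes, so small differences can move with that scaling. The design text names an exon array, while the probe table is that of a gene-level array; which was hybridised is not settled here, and no genome build is stated. Of 35556 rows, 21789 had 1 gene symbol, 1621 several and 12146 none in the probe table. For a gene with several clusters the cluster of highest mean was taken. Differences are knockout minus heterozygote with no further normalization, on genes whose mean was not under 7.71, the 50th percentile over all rows. No test was run, because each genotype has 1 array. H2afx was matched through its current symbol.

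Named are all 41 measured members, Taf7, up to 3 genes at either end of each group of other repair genes, proliferation and regulatory T cell markers, and the neighbours of a member past 2-fold; other genes named were chosen after their values were seen. Members and lists were chosen with earlier results of these data known, and the promoter motifs after the values were seen. The computation was tested on simulated data. Other settings were averaged clusters, filters at the 75th and 25th percentile or none, quantile normalization, and subtraction of the median difference or of a loess trend (span 0.3); genes of 1 cluster only and members without Fam111a were added later. Promoter windows and gene order are from RefSeq, GRCm38.p6, which was not used to place array probes. Scripts ran in Python 3.11.15 with statsmodels 0.14.6, pandas 2.3.3 and numpy 2.4.6, and figures were drawn with matplotlib 3.10.9.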

Additional observations from a re-analysis of the deposited data

How the results depend on the processing

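No paired analysis was possible because there is a single array for either genotype, and for the same reason no array could be left out. The number of members lower by at least 1.5-fold, 2 as deposited and with none higher, was 1 with the loess trend subtracted, after quantile normalization and with clusters averaged, in each case with Nbn inside the step. It was 1 among genes of 1 cluster only and 1 without Fam111a, settings chosen after seeing the data that remove 1 of the 2 genes, and 0 when the filter stood at the 75th percentile, which 15 members pass, 12 of them lower. The member median stayed between -0.19 and -0.08 over all settings. Of the 37 members above the filter 30 kept their sign under the 3 other scalings, 25 lower and 5 higher; 7 with differences near 0 did not. The filters and cluster rules cannot change the difference of a gene with 1 cluster, which is every member but Nbn.

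Other repair genes lower by at least 1.5-fold numbered 3 after the median difference was subtracted, 4 with the trend subtracted, 4 after quantile normalization and 1 at the 75th percentile, against 7. Over all genes, those at least 1.5-fold higher numbered 71 after centring, 91 with no filter and 16 at the 75th percentile, which left 105 lower and 121 in all. The share of all genes that were lower, 59.1% as deposited, was 39.3% with no filter, where the median was 0.059, and 44.4% with the filter at the 25th percentile, both of which admit genes of low signal that were mostly higher. It was 48.2% after quantile normalization, and the cause was not tested. Taf7 lay below 0 under all 3 other scalings. Chek1, Chek2, Brca1 and Fancd2 are below the filter, which is a percentile of all rows and not a measured background. How far their signals stand above background was not tested.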
